A study of Drosophila melanogaster with 6 samples.

Results

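The genes of chromosome 4, the smallest autosome of Drosophila melanogaster, were followed in neural cells in which the remodeller gene domino (dom) was knocked down. Members were the rows of the authors' deposited table whose gene lies on chromosome 4, with ribosomal protein genes and genes named as long noncoding or antisense RNAs left out. This gave 31 members of the 3326 genes in the table, 30 of them protein coding and 1 a pseudogene. Virgins with the driver insc::Gal4 and the transgenes UAS::CD8-GFP and UAS::Dcr-2 were crossed to w1118 males for the group called wild type, or to w1118; UAS::dom-RNAi males for the knockdown, and the offspring grew at 25 °C. Brains of wandering larvae were dissected, and live GFP-positive cells were sorted and sequenced in 3 libraries per genotype. All 6 libraries therefore carried the driver, the membrane GFP and the Dicer-2 transgene, and the wild type was a driver control without a hairpin. The insc driver acts in neuroblasts, which are neural stem cells, and its GFP also marks some of their progeny. The labels give no chromosome 4 genotype of the paternal stocks, and do not say whether the sorts came from separate batches of larvae.

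Chromosome 4 is a dot-like chromosome that carries marks of heterochromatin along most of its length. Heterochromatin protein 1a and methylated histone H3 lysine 9, laid down there by the methyltransferase Eggless, cover genes that are nevertheless transcribed, and the protein Pof binds many of them. Domino is the ATP-dependent subunit of the Tip60 complex and exchanges the histone variant H2Av into nucleosomes. The annotation shows the character of the arm: it holds 421 annotated transposon fragments per Mb, against 22.8 to 58.8 per Mb on the 5 large arms. Its protein-coding genes are also long, with a median span of 10426 bp against 1998 to 2541 bp on those arms.

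The authors' deposited table holds 1 comparison over all libraries and only genes with a DESeq2 adjusted p below 0.05, so every member had passed that threshold by being listed. The values of single libraries and their depths were not analysed here. For each gene the authors' deposited table gives the counts divided by size factors and averaged over libraries, called the mean normalized count, and a log2 ratio with its standard error. Ratios are given here as knockdown over wild type, and intervals are 95% normal limits from the authors' standard error. The target dom was at 67.1% of the wild type level per the authors' deposited table (log2 -0.58, SE 0.11), and this value also helped to settle the sign of the ratios. Per the authors' deposited table, Dcr-2, a transgene of both groups, was 1.87-fold higher (log2 0.90, SE 0.23) and the eye colour gene w 2.50-fold higher (log2 1.32, SE 0.13), and their part in the other differences was not tested. Among the cell type markers used to check the sorted cells, 1 of 6 neuroblast markers was listed, which was higher. Of the neuron markers 5 of 8 were listed as lower, as were 4 of 6 markers of hemocytes, the blood cells of the fly. Of 6 glia markers 4 were listed as higher. Over all tested genes, 28.0% were listed, 13.9% as higher and 14.2% as lower.

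Most of the listed chromosome 4 genes fell in the knockdown. Of the 31 members 20 were lower and 11 higher, so 35.5% were higher, beside 49.5% of all 3326 listed genes and 46.4% of listed genes on the other arms with the same names left out. The table as a whole lists 28.0% of the 11859 genes tested, 13.9% as higher and 14.2% as lower. The median log2 ratio of the members was -0.35, beside -0.20 over all listed genes. The members were also more abundant, with a median mean normalized count of 6587 against 1709 for listed genes of the other arms. On either side of a mean of 2000, a split chosen after the values were seen, the shares were closer. Under a mean of 2000, 7 of 10 members and 64.8% of the other listed genes were higher. At 2000 or more, 4 of 21 members and 25.8% of the other listed genes were higher. Finer classes held few members, and in some the shares were further apart. From 100 to 500, 3 of 3 members and 68.7% of the other listed genes were higher. At 10000 or more, 1 of 12 members and 27.2% of the other listed genes were higher. With all log2 ratios shifted down by 0.1, in place of another centring, 6 higher and 20 lower members still passed, and with a shift up 11 and 14 did. By design, a shift down could remove only higher members and a shift up only lower ones. The table lists 30 of the 79 protein-coding genes annotated on chromosome 4 after the same names were left out, which is 38.0%, beside at most 22.7% on each of the large arms. Those shares are of annotated genes, of which an unknown number was tested. In sorted cell populations, fewer cells of a type and less RNA per cell cannot be told apart.

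**Figure D1:**
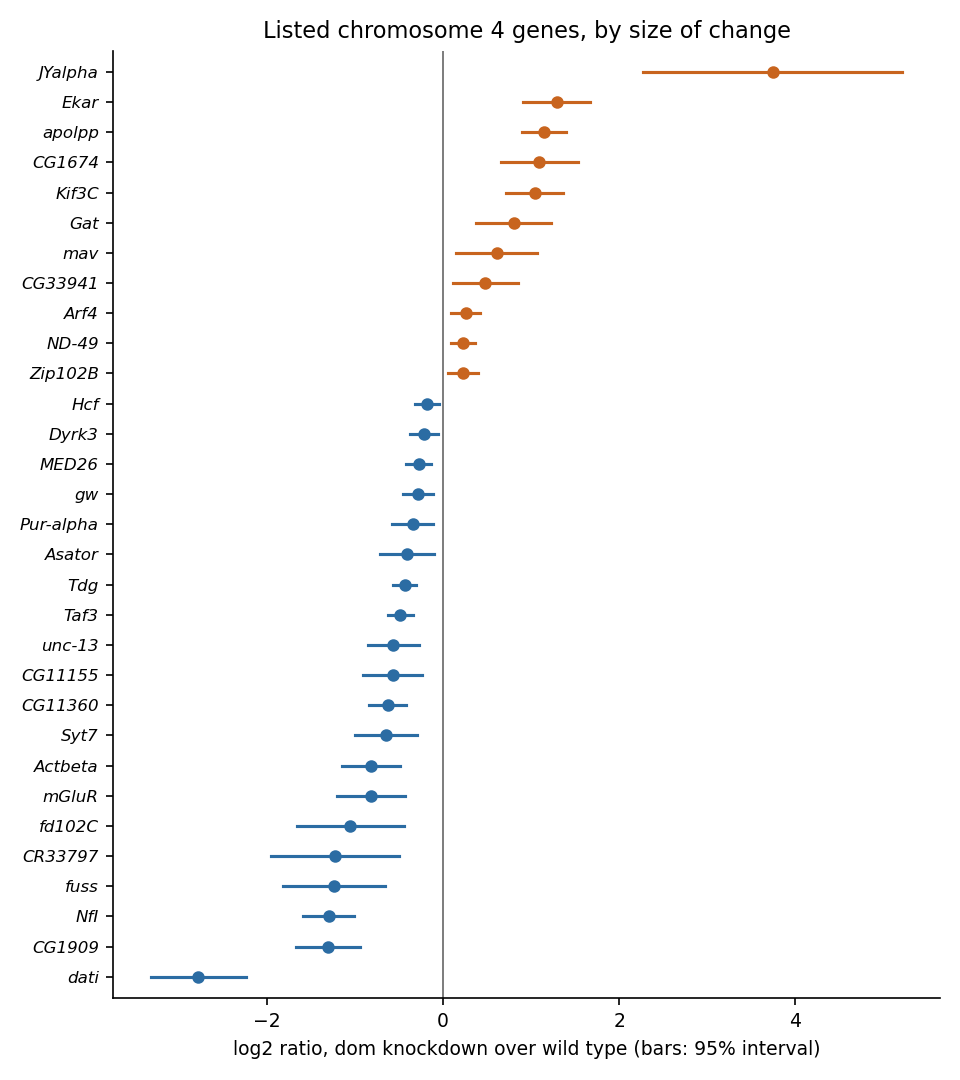
Log2 ratio of knockdown over wild type for the 31 listed chromosome 4 genes (x axis), ordered by size (y axis), with points for the authors' ratio and bars for its 95% interval. JYalpha at 3.74 and dati at -2.78 stand apart at the ends, and 14 members changed by less than 1.5-fold.

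The listed transcription factors and cofactors of the arm all fell, but of these Hcf, Pur-alpha and MED26 no longer passed when all log2 ratios were shifted up by 0.1. The zinc finger gene dati (FBgn0262636, dm6 4:375640-395605, minus strand) had the largest decrease, to 14.5% of control at a mean normalized count of 34073 per the authors' deposited table. The authors' deposited table gives it a log2 ratio of -2.78 (interval -3.32 to -2.24, DESeq2 adjusted p 6.52e-22). The interval of dati did not overlap that of any other member. NfI (FBgn0042696, 4:268175-276369, minus strand), which encodes the fly's nuclear factor I, was at 40.6% of control (log2 -1.30, SE 0.15, DESeq2 adjusted p 2.40e-16), and fuss, a member of the Ski and Sno family of corepressors, was at 42.4% (log2 -1.24, SE 0.29) per the authors' deposited table. The intervals of NfI and fuss overlap, so their order is not set by these data. Reads of fuss may come in part from other genes, since 21.2% of its exon bases are shared with asRNA:CR44030 and lncRNA:sphinx.

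The general cofactors fell less. Pur-alpha, which encodes a protein that binds single-stranded nucleic acid, MED26, a subunit of Mediator, and Hcf, a cofactor of chromatin complexes, had log2 ratios of -0.35 (SE 0.12), -0.28 (SE 0.07) and -0.18 (SE 0.07) per the authors' deposited table. Hcf was among the members closest to the threshold, with a DESeq2 adjusted p of 0.0372 per the authors' deposited table. These were the 6 listed genes of the 17 in the list of chromosome 4 transcription factors and cofactors, all 6 lower with a median log2 ratio of -0.79. Beside this, 28.0% of all tested genes were listed, 14.2% as lower, and 38.0% of the protein-coding genes annotated on the arm. All but fuss had a mean normalized count of 2000 or more, where only 25.8% of the other listed genes were higher. The other 11 were not listed, among them the Hedgehog effector gene ci, the eye genes ey and toy, the Wnt effector gene pan, and zfh2, onecut and pho. A gene that is not listed has no ratio here and cannot be called unchanged. Outside that list, the forkhead gene fd102C was at 48.2% of control (log2 -1.05, SE 0.31), and Taf3, a subunit of the general factor TFIID, was at 71.4% (log2 -0.49, SE 0.07, DESeq2 adjusted p 6.47e-10) per the authors' deposited table.

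Synaptic genes of the arm changed in both directions. Lower were mGluR, the metabotropic glutamate receptor gene, at 56.5% of control (log2 -0.82, SE 0.20), Syt7, which encodes a synaptotagmin calcium sensor, at 63.9% (log2 -0.65, SE 0.18), and unc-13, needed to prime synaptic vesicles, at 67.5% (log2 -0.57, SE 0.15), per the authors' deposited table. Of all members unc-13 (FBgn0025726, 4:867824-912331, minus strand) had the highest mean normalized count, 71848 per the authors' deposited table. With antisense and other overlapping genes it shares 25.2% of its exon bases. Higher were Ekar, a kainate-type glutamate receptor gene, at 2.44-fold (interval 1.87 to 3.18, DESeq2 adjusted p 1.22e-09), and the GABA transporter gene Gat at 1.74-fold (interval 1.30 to 2.34) per the authors' deposited table. The lower genes were abundant and the higher ones rare: the mean normalized count per kb of exon was 864 for mGluR, 2820 for Syt7 and 3179 for unc-13, against 122 for Ekar and 103 for Gat. Of the 7 genes of this list that lie on chromosome 4, 5 were listed, 2 higher and 3 lower, and PMCA and Cadps were not. The share listed was 28.0% over all tested genes and 38.0% over the protein-coding genes annotated on the arm. CG11155, which encodes another kainate-type receptor and was in no list, was lower at 67.3% of control (log2 -0.57, SE 0.17) per the authors' deposited table. The 2 kainate receptor genes thus moved in opposite directions.

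Neuron markers moved with the lower of these genes. The 5 listed of 8 neuron markers, namely Rbp9, fne, Syt1, cpx and nrv3, had log2 ratios from -2.71 to -0.47 per the authors' deposited table, while elav, nSyb and brp were not listed. Glia markers moved with the higher ones: alrm, htl, gcm and repo had log2 ratios of 1.94, 0.81, 0.72 and 0.56 per the authors' deposited table, and moody and Eaat1 were not listed. The listed neuron markers were also mostly more abundant, with mean normalized counts from 1780 to 93512, against 765 to 4267 for the glia markers. Among the other listed genes 64.8% were higher at a mean under 2000 and 25.8% at 2000 or more. The part of neurons or glia in the changes of the chromosome 4 genes was not tested.

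Genes of the TGF-beta family and of signalling also differed in direction. The activin ligand gene Actbeta (FBgn0024913, 4:1077331-1084796, minus strand) was lower, at 56.6% of control (log2 -0.82, SE 0.17, DESeq2 adjusted p 1.43e-05), while mav, which encodes the related ligand Maverick, was 1.53-fold higher with an interval of 1.11 to 2.10, per the authors' deposited table. The third ligand gene of the family on the arm, myo, was not listed. The kinase genes Asator and Dyrk3 were slightly lower, with log2 ratios of -0.41 (SE 0.16) and -0.22 (SE 0.08) per the authors' deposited table. Of 18 signalling, guidance and adhesion genes on the arm 4 were listed, 1 higher and 3 lower, and the Ephrin and Plexin genes Ephrin, Eph, PlexA and PlexB were among the 14 not listed. Over all tested genes 28.0% were listed.

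Genes of the lists for metabolism and for RNA, translation and trafficking changed in both directions, 5 higher and 2 lower. ND-49, a subunit of mitochondrial complex I, Zip102B, a zinc transporter gene, and Arf4, which encodes a small GTPase of vesicle traffic, rose by 1.17-fold, 1.17-fold and 1.19-fold per the authors' deposited table, with standard errors of the log2 ratio from 0.07 to 0.09. None of these 3 still passed when all log2 ratios were shifted down by 0.1. The lipid carrier gene apolpp (FBgn0087002, 4:1060969-1077273, plus strand) was 2.21-fold higher (interval 1.86 to 2.63, DESeq2 adjusted p 1.79e-17), and the kinesin gene Kif3C was 2.06-fold higher (interval 1.64 to 2.58) per the authors' deposited table. Of the 4 fat body markers apolpp was the only one listed. Lower were Tdg, which encodes a thymine DNA glycosylase, at 73.8% of control (log2 -0.44, SE 0.07), and gw, a core factor of microRNA silencing, at 82.0% (log2 -0.29, SE 0.09), per the authors' deposited table. Tdg shares 20.9% of its exon bases with zfh2 and lncRNA:CR43958. Of the list of metabolism genes 4 of 6 were listed, 3 higher and 1 lower, and of the list of RNA, translation and trafficking genes 3 of 9, 2 higher and 1 lower. Over all tested genes 28.0% were listed.

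JYalpha (FBgn0267363, 4:879-5039, plus strand), which encodes an alpha subunit of the sodium-potassium ATPase, had the largest increase, 13.4-fold with an interval of 4.82 to 37.2 per the authors' deposited table. It was also the rarest member, at a mean normalized count of 8.75 per the authors' deposited table, where 85.8% of the other listed genes with a mean under 100 were higher as well. Members of less well known function were CG1674, 2.13-fold higher, CG33941, at 140% of control, CG1909, at 40.5% of control, CG11360, at 64.6%, and the pseudogene CR33797, at 42.6%, per the authors' deposited table. The log2 ratio of CG1909 was -1.31 (SE 0.19, DESeq2 adjusted p 7.14e-11) per the authors' deposited table, as low as that of NfI within their errors. CG33941 had the largest DESeq2 adjusted p of all members, 0.0382 per the authors' deposited table.

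**Figure D2:**
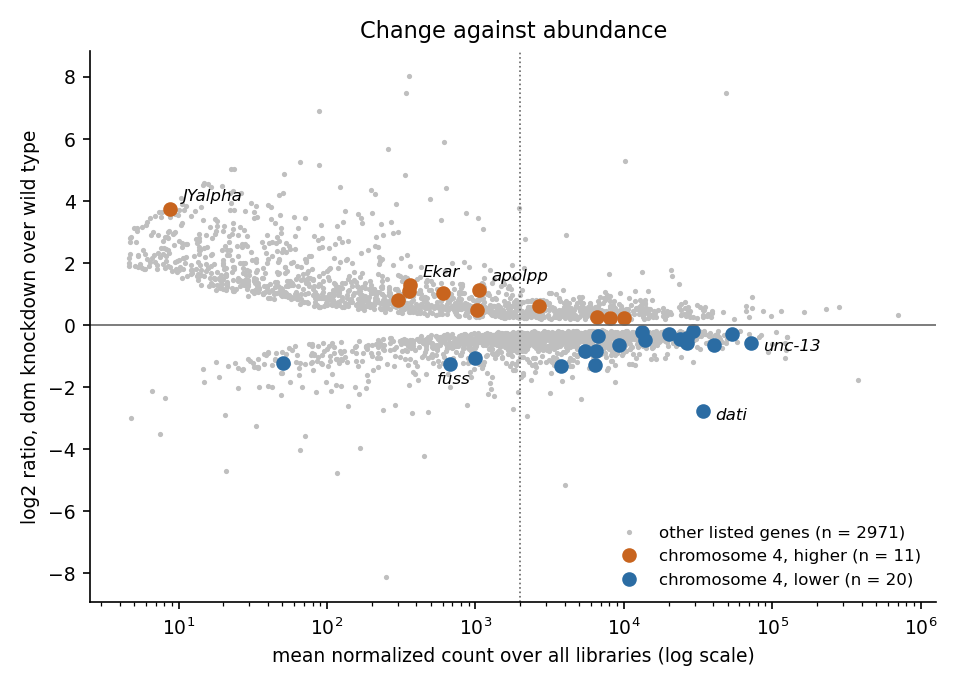
Log2 ratio of knockdown over wild type (y axis) against the mean normalized count over all libraries (x axis, log scale) for the other 2971 listed genes with a position (grey) and for chromosome 4 genes that were higher (orange) or lower (blue). The dotted line marks a mean of 2000, above which 17 of the 21 members were lower.

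Direction went with abundance, among the members as in the rest of the table. Members with a mean normalized count under 2000 were mostly higher, 7 of 10, and those at 2000 or more mostly lower, 17 of 21. Among the other listed genes 64.8% of 1591 were higher under 2000 and 25.8% of 1380 at or above it, where 7 of 10 and 4 of 21 members were. The members had a median mean normalized count of 6587 per the authors' deposited table, against 1709 for listed genes of the other arms. At 10000 or more, 1 of 12 members was higher, which was ND-49, beside 27.2% of 416 other listed genes.

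**Figure D3:**
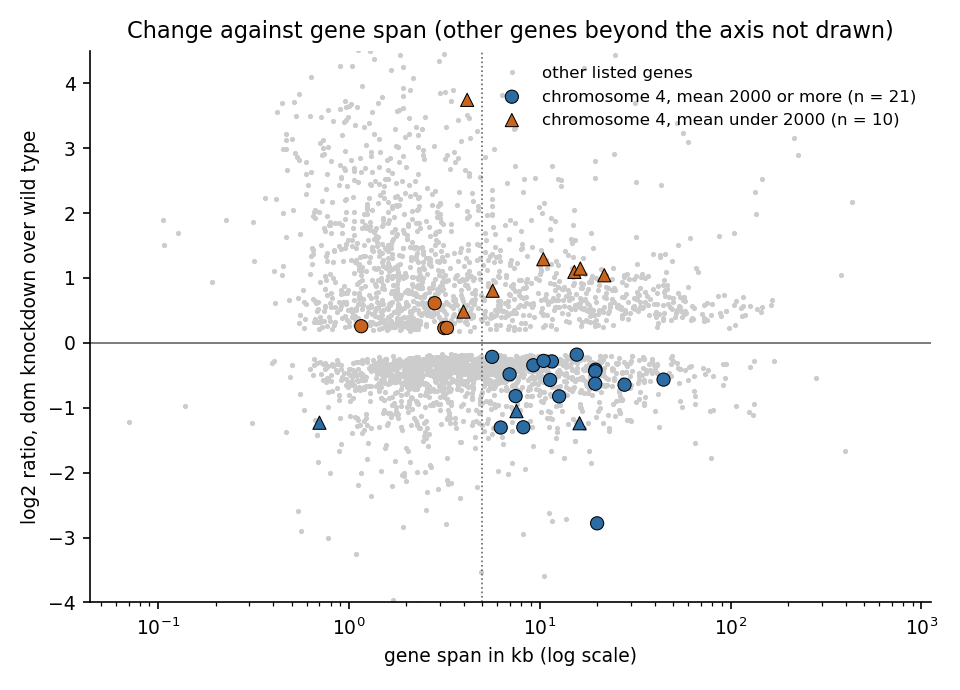
Log2 ratio of knockdown over wild type (y axis) against gene span in kb (x axis, log scale) for chromosome 4 genes, orange for higher and blue for lower, with circles for a mean normalized count of 2000 or more and triangles for less, and grey points for other listed genes. Among the circles, the 4 genes left of the dotted line at 5 kb were higher and the 17 to its right lower.

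Among the abundant members, direction also went with gene span, a split chosen after the values were seen. The 4 members with a mean of 2000 or more and a span under 5 kb, namely Arf4, mav, Zip102B and ND-49, were higher, and the 17 of that abundance with longer spans were lower. None of these 4 still passed when all log2 ratios were shifted down by 0.1. Among the other listed genes, 26.6% of 602 short and 25.2% of 778 long abundant genes were higher. Of the members with a mean under 2000, 2 of 3 short and 5 of 7 long ones were higher. The spans of lower members held more annotated transposon fragments, with a median of 5.5 against 1 for higher members, but they were also longer, and per kb of span the medians were 0.36 and 0.25. The spans of 5 members held none, JYalpha, Zip102B, mav, CR33797 and Arf4, of which CR33797 was lower and the other 4 higher.

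Along the chromosome, the members fell into 16 runs of 1 direction, from 1 to 8 members long. Of 30 pairs of consecutive members 15 shared a direction, and of the 12 pairs with no other protein-coding gene starting between them 6 did, so neighbours shared a direction as often as not. The longest run was of 8 lower members from gw to fuss (4:649041-978489), which include CG11360, MED26, fd102C, CR33797, unc-13 and mGluR. It is not an unbroken block, since protein-coding genes that were not listed, among them myo, ey, bt and Sox102F, lie between these members. Just before it lay a run of 3 higher members, mav, Gat and Ekar, within 23.3 kb (4:623219-646556). Neighbours with gaps of under 100 bp could differ widely: Hcf ends 85 bp from dati and had a log2 ratio of -0.18 beside -2.78, and apolpp ends 57 bp from Actbeta and had 1.14 beside -0.82, per the authors' deposited table. Both pairs converge, so the ends of these genes and not their starts are close. Of pairs with close starts, Tdg and Pur-alpha, 161 bp apart, had -0.44 and -0.35 per the authors' deposited table. Taf3 and CG33941, 668 bp apart, had -0.49 and 0.48 per the authors' deposited table.

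**Figure D4:**
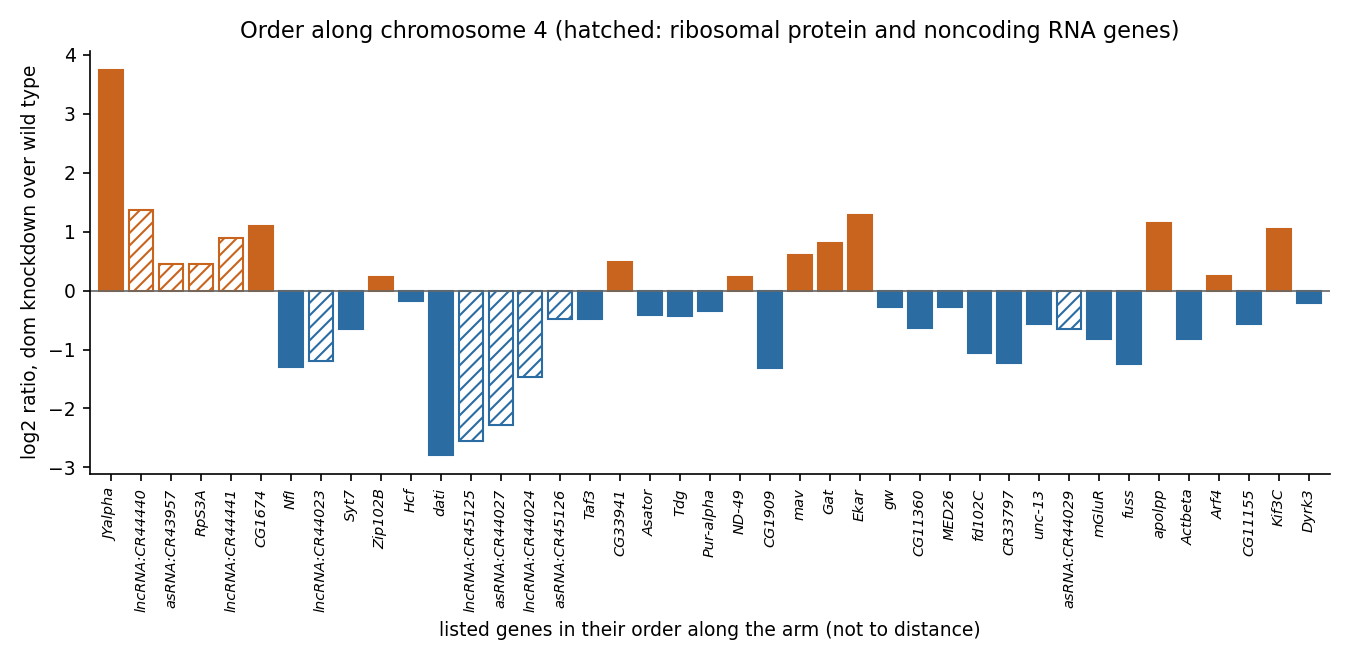
Log2 ratio of knockdown over wild type (y axis) for all 41 listed chromosome 4 genes in their order along the arm (x axis, not to distance), orange for higher and blue for lower. Filled bars are the 31 members and hatched bars the 10 ribosomal protein and noncoding RNA genes left out by name, and the lowest stretch is that of dati and the noncoding genes next to it.

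The 10 listed genes of the arm that were left out by name lay among the members. RpS3A was higher (log2 0.45, SE 0.08), as were 3 of the 9 noncoding RNA genes, while 6 were lower, per the authors' deposited table. Noncoding genes in or near dati moved with it. Inside its span, lncRNA:CR45125 had a log2 ratio of -2.55 (SE 0.44) per the authors' deposited table. asRNA:CR44027, which shares 37.6% of its exon bases with dati, had -2.27 (SE 0.62) per the authors' deposited table. The mean normalized counts of these 2 were 27.7 and 40.9, beside 34073 for dati, per the authors' deposited table. Whether reads of dati were counted for them was not tested. The next listed gene along the arm, lncRNA:CR44024, starts 31376 bp further on and had -1.46 (SE 0.29) per the authors' deposited table. Besides asRNA:CR44027 and dati, 2 antisense genes had a listed partner and the same direction, asRNA:CR45126 at -0.48 beside Taf3 at -0.49, and asRNA:CR44029 at -0.66 beside unc-13 at -0.57, per the authors' deposited table. They share 59.7% and 13.1% of their exon bases with those partners, and without a stated strand setting such reads cannot be told apart. The remaining listed antisense gene, asRNA:CR43957, was higher (log2 0.45, SE 0.17) per the authors' deposited table, and its partner ci was not listed. For CG33941 and Asator, on opposite strands, 42.9% of the exon bases of CG33941 are shared, yet their log2 ratios were 0.48 (SE 0.19) and -0.41 (SE 0.16) per the authors' deposited table. CR33797, inside the span of fd102C on the other strand with no shared exon base, was lower as fd102C was, at -1.23 (SE 0.37) beside -1.05.

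Genes for proteins that act on chromosome 4 or on heterochromatin, which lie elsewhere in the genome and were no members, were lower where listed. Of 13 such genes 7 were listed and all 7 were lower, with a median log2 ratio of -0.37, beside 28.0% of all tested genes listed and 14.2% listed as lower. HP4, which encodes a partner of heterochromatin protein 1a, was at 71.4% of control (log2 -0.49, SE 0.10), and Su(var)3-7, another partner, was at 77.3% (log2 -0.37, SE 0.09), per the authors' deposited table. The cofactor gene of Eggless, wde, was at 80.3% (log2 -0.32, SE 0.08), and the methyltransferase gene G9a at 84.5% (log2 -0.24, SE 0.09) per the authors' deposited table. ADD1, Parp1, which encodes a poly(ADP-ribose) polymerase, and the histone demethylase gene Su(var)3-3 had log2 ratios of -0.39, -0.37 and -0.33 per the authors' deposited table. Their mean normalized counts were from 4641 to 15903, and of the other listed genes 25.2% were higher at a mean from 2000 to 10000 and 27.2% at 10000 or more. The genes of Pof, Eggless and heterochromatin protein 1a were among the 6 not listed. The list was chosen with earlier results of these data known, so its share of listed genes is no test of enrichment. Whether these decreases bear on the chromosome 4 genes was not tested.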

How the data were processed

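RNA of sorted neural cells was sequenced after TRIzol extraction and TruSeq library preparation, per the labels' protocols. DESeq2, HTSeq 0.6.1, STAR 2.3.0e, FastQC 0.11.2 and SAMtools 0.1.19 are named with build dm6, per the submitters' processing notes. Not given in the sources used here are the annotation, the strand setting, filters and shrinkage. Per the file headers, the authors deposited counts divided by size factors and averaged over libraries (a signal), a log2 ratio, its standard error (entered as a score), the Wald statistic with its p-value, and the adjusted p. The table was UTF-7 text and was decoded, and the sign of the ratio, named with the control first, was turned. If that header were the reverse, all directions would swap, and the target dom would be higher in its own knockdown. Rank, p and adjusted p gave 11859 tests, exactly (within 0.01) in 2883 rows. Positions and biotypes came from Ensembl release 115 on the assembly of dm6, 1-based, matching 3264 of 3326 IDs, so the other 62 could not be placed. RefSeq placed the 31 members on chromosome 4 too. Means and ratios per gene are the authors', while counts, medians and classes were computed here with pandas 2.3.3. The step that infers the number of tests was tested on simulated data. Nothing in the labels shows separate cultures of larvae, so p-values may measure technical spread only. Members and lists were chosen with earlier results of these data known, and the class boundaries and the genes in no list after their values were seen. Named were the 20 largest ratios, the 5 highest means and the listed transcription factor, signalling and synaptic genes, and the remaining members were added. Of the genes in the lists, KaiR1D, nAChRbeta3 and Abcd3 are not on the arm and 2 names were not matched. The planned search of promoters was not run, since no sequence was used here.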

Additional observations from a re-analysis of the deposited data

How the results depend on the processing

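No paired analysis was possible because the table holds no values per library. For the same reason leaving out each replicate was not run. Of the 31 members, 11 higher and 20 lower with a median log2 ratio of -0.35, the counts shrink under stricter rules because fewer genes enter. An adjusted p below 0.01 left 8 higher and 16 lower with a median of -0.53, and one below 0.001 left 5 and 9 with a median of -0.56. A change of at least 2-fold left 5 higher and 6 lower with a median of -1.05, where 76.0% of all 996 such rows were higher. A mean normalized count of at least 500 left 7 higher and 19 lower members, 26.9% higher beside 33.3% of all rows of that abundance, a smaller gap than the 35.5% against 49.5% without this minimum. With all log2 ratios shifted down by 0.1, in place of another centring, 6 higher and 20 lower members still passed, with a median of -0.56. The higher members lost were Zip102B, CG33941, ND-49, mav and Arf4, so the rise of all 4 short abundant members depends on the centring. With a shift up, 11 higher and 14 lower members still passed, and Hcf, Asator, Pur-alpha, gw, MED26 and Dyrk3 were lost. The share of higher members was 23.1% and 44.0% under these shifts, against 41.7% and 59.9% of all rows, but only listed genes have a ratio, so a shift can add none. No member could change sign under either shift, since the smallest absolute log2 ratio, that of Hcf, was 0.18. A shift down could remove only higher members and a shift up only lower ones. With every row on the arm, with protein-coding members alone, at a mean of at least 50 or without the 5 members that share over 10% of their exon bases, 33.3% to 38.5% were higher. Read depth is unknown, and the authors' standard error of members ranged from 0.07 to 0.75.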
